A study of Mus musculus with 6 samples.

Results

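Il7r, Il2rg, Satb1, Ikzf1, Ikzf2, Emb and Ly6d, which encode lymphoid priming regulators and receptors, were followed in multipotent progenitors (MPPs) and hematopoietic stem cells (HSCs) of Bmi1 KO and wild-type (WT) mice. The members were all probes that the array files assign to these 7 gene names, 10 of 55681 probes, and 9 of the 10 passed the filter on dim probes that left 44641. Each of 6 Agilent arrays held 1 Bmi1 KO sample labelled with Cy5 against 1 WT sample labelled with Cy3, with 3 MPP arrays and 3 HSC arrays. All mice were C57BL6 and 2 to 3 months old, the cells had been sorted by FACS, and the labels call the replicates biological. No array had the dyes exchanged, so a dye effect of a probe and the genotype cannot be told apart in a ratio. The part of Bmi1 that the KO allele lacks is not given in the sources used here, nor is the sorting scheme.

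Lymphoid priming is the early, low expression of lymphoid genes in progenitors that can still make myeloid cells. Satb1 is a chromatin organizer that promotes lymphoid fate, and Ikzf1 (Ikaros) and Ikzf2 (Helios) are zinc finger transcription factors of 1 family. Il7r and Il2rg together form the receptor for interleukin-7, which mouse B and T cell precursors need to survive and expand. Emb (embigin) is a membrane glycoprotein related to basigin, and Ly6d is a surface protein that marks B-lineage-directed lymphoid progenitors.

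The probes differ in how well they identify their gene. Each was 60 bases long, and positions are those of the files, on mouse assembly mm9. The first 30 bases are shown for the probes whose values carry the population difference, 5′ to 3′.
Satb1 A_51_P324228, chr17:51879137-51879196, minus strand: caccggtatttcctaacaacatgagaagtc
Emb A_51_P382849, chr13:118062731-118062790, plus strand: atacaggaggactagtgcactatctttatg
Il7r A_51_P196695, chr15:9435976-9436035, minus strand: atcaatcaactatgtttggatccagggaat
Il2rg (chrX:98460130-98460189, minus strand) and Ly6d (chr15:74592551-74592610, minus strand) also had 1 probe each. Ikzf2 had 2 probes, on chromosome 1 at 69577853 to 69577912 and at 69584008 to 69584067, both on the minus strand. Exons and UTRs were not assigned, since no annotation of mm9 was used here.

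Ikzf1 had 3 probes on the plus strand of chromosome 11, at 11661344 to 11661403, 11669493 to 11669552 and 11672828 to 11672887. The files list 2 RefSeq transcripts for the middle and for the distal probe. For the proximal probe, A_55_P2023607, they list 0 RefSeq transcripts and 1 Ensembl transcript. The middle probe, A_55_P2023612, had the highest mean intensity of the 3 but is nearly the same sequence as a probe assigned to Ikzf4 (Eos), another member of the family. The pair is printed whole, with capitals at the bases that differ where the probes overlap.
Ikzf1 A_55_P2023612, chr11:11669493-11669552: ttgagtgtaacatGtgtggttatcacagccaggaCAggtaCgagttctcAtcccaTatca
Ikzf4 A_55_P1979682, chr10:128071131-128071190: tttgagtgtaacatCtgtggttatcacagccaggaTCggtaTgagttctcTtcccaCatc
Shifted by 1 base, the probes overlap over 59 bases and share 53 of them. None of the other 9 member probes had a probe of another gene with 40 or more identical bases in an ungapped overlap. The signal of the middle Ikzf1 probe is therefore reported as uncertain between Ikzf1 and Ikzf4.

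The arrays were checked before the members were compared. The share of spots marked well above background was 78.8% to 83.9% in the KO channel and 72.5% to 82.2% in the WT channel, and 0 or 1 spots per array were saturated. Bmi1 had 2 probes, whose log2 ratios of KO over WT averaged 0.53 ± 0.52 and 0.01 ± 0.62 on MPP arrays and -0.06 ± 1.52 and -1.11 ± 1.14 on HSC arrays (SD, n = 3). Since Bmi1 signal was not lower in KO on every array and the deleted part is unknown, the Cy5 samples are called KO-labelled here. The population labels were set against marker genes. Of 6 MPP markers, 5 were higher in MPPs than in HSCs in either channel, and of 12 HSC markers, 9 were lower in the KO channel and 11 in the WT channel. HSC array 3 stood apart in myeloid markers. The summed linear level of 8 basophil, mast cell and eosinophil genes was 153545 on KO-labelled HSC 3, against 1309 and 6940 on HSC 1 and 2. In WT HSCs it was 10755 on array 3, against 728 and 790. All arrays came from 1 slide and 1 scan, with HSC 1 to 3 and MPP 1 in 1 row of the slide and MPP 2 and 3 in the other.

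MPPs were first compared with HSCs within each dye, which asks how the genes differ between the populations in KO-labelled and in WT cells. Levels are log2 background-corrected signals scaled between the 6 arrays of 1 dye, so the level of a KO-labelled sample is never set against that of a WT sample. Satb1 was much higher in MPPs in both genotypes and passed the test in KO-labelled cells. Emb was higher in MPPs in both, without passing. Il7r was dim and did not pass in either genotype. Il2rg, Ikzf1 and Ikzf2 had small positive differences that did not pass, and Ly6d was the 1 gene whose mean was lower in MPPs in both genotypes. In bulk samples such as these, more cells that express a gene and more RNA per cell cannot be told apart.

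**Figure D1:**
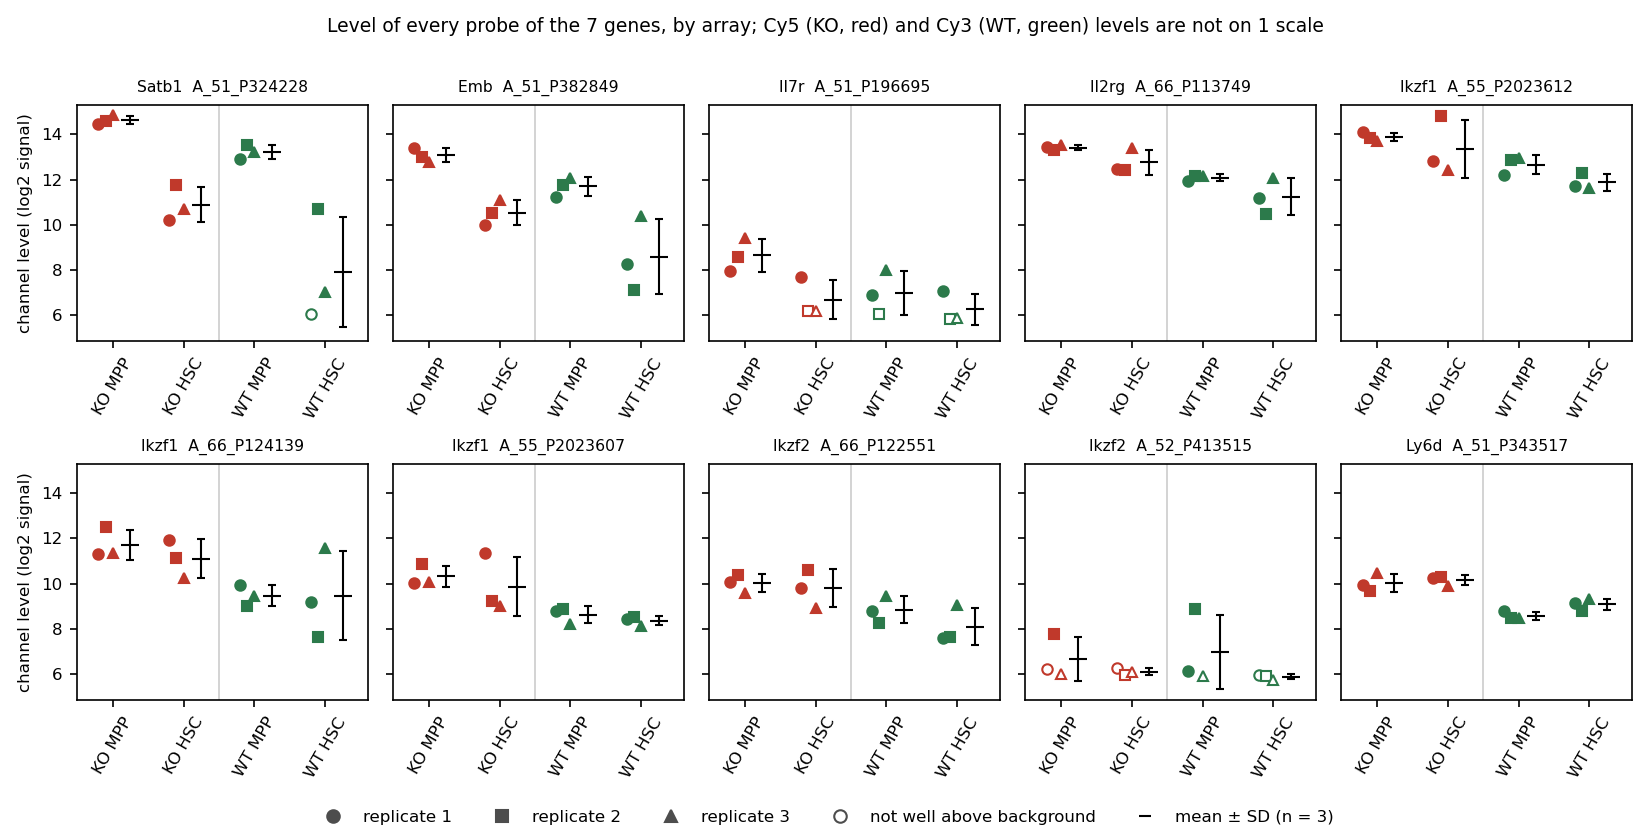
Level of all 10 probes in each sample (log2 signal on the vertical axis), with KO-labelled MPPs and HSCs left of WT MPPs and HSCs. Marker shapes are replicates, open markers are not well above background, and bars are mean ± SD of 3 arrays. Satb1 in KO-labelled cells lies at 14.48 and above in MPPs and at 11.76 and below in HSCs.

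Satb1 had levels of 14.48, 14.59 and 14.84 in KO-labelled MPPs 1, 2 and 3, against 10.22, 11.76 and 10.70 in KO-labelled HSCs. In WT cells its levels were 12.91, 13.53 and 13.22 in MPPs, against 6.07, 10.69 and 7.02 in HSCs, where array 1 was not well above background. The MPPs were close to each other in both genotypes, the WT HSCs were widely spread, and the groups did not overlap in either dye. The MPP minus HSC difference was 3.74 (SE 0.42) in KO-labelled cells, a 13.4-fold higher signal, with limma's adjusted p = 0.0343. In WT cells it was 5.29 (SE 1.16, 39.2-fold) with limma's adjusted p = 0.189, a larger difference with a wider spread. In the KO channel Satb1 ranked at 86 of 44641 probes by p.

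The Satb1 call in KO-labelled cells held in 4 of 13 other settings, with a difference between 3.41 and 4.17 in all of them. It was lost without any 1 array except HSC 2, with limma's adjusted p of 0.0722 without HSC 1, 0.0753 without HSC 3, 0.130 without MPP 1, 0.134 without MPP 2 and 0.151 without MPP 3. With the slide row as a covariate, which leaves MPP 1 against the HSC arrays, the difference was 3.58 with an adjusted p of 0.518. In WT cells the WT HSC 2 sample decided the outcome: without that array the difference was 6.67 and limma's adjusted p fell to 0.0243.

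Emb had levels of 13.40, 13.02 and 12.78 in KO-labelled MPPs, against 9.98, 10.54 and 11.11 in KO-labelled HSCs. In WT cells they were 11.24, 11.76 and 12.09 in MPPs, against 8.27, 7.10 and 10.38 in HSCs. All MPP samples lay above all HSC samples within each dye. The difference was 2.52 (SE 0.37, 5.75-fold) in KO-labelled cells and 3.11 (SE 0.82, 8.64-fold) in WT cells, with limma's adjusted p of 0.0650 and 0.244. HSC array 3, the array with high basophil and neutrophil markers, held the highest HSC level of Emb in both genotypes. Without it the difference was 2.81 in KO-labelled cells and 4.01 in WT cells, with limma's adjusted p of 0.0602 and 0.0914. Over all 6 fits that left out 1 array, the difference ran from 2.24 (without HSC 1) to 2.81 in KO-labelled cells, with limma's adjusted p between 0.0602 and 0.236. In WT cells it ran from 2.37 (without HSC 2) to 4.01, with limma's adjusted p between 0.0914 and 0.589.

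Il7r was well above background in 7 of 12 channels, all 3 KO-labelled MPPs, 2 WT MPPs and 1 HSC sample of each genotype. It passed the filter only through the KO-labelled MPPs. Its levels were 7.98, 8.56 and 9.42 in KO-labelled MPPs, against 7.68, 6.21 and 6.20 in KO-labelled HSCs. In WT cells they were 6.90, 6.06 and 8.01 in MPPs, against 7.06, 5.85 and 5.87 in HSCs. The groups did not overlap in KO-labelled cells and overlapped in WT cells. The differences were 1.95 (SE 0.55) and 0.73 (SE 0.59), with limma's adjusted p of 0.265 in KO-labelled cells and 0.598 in WT cells. With Agilent's processed signal the differences were 4.14 and 2.37, with limma's adjusted p of 0.317 in KO-labelled cells and 0.555 in WT cells. In WT cells the difference was 0.22 without MPP 3, 1.19 without MPP 2 and 1.13 without HSC 1, and in KO-labelled cells it was 1.28 with the slide row as a covariate. Dim signals near the floor understate a fold change.

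B cell markers were also high in KO-labelled MPPs, and KO-labelled MPP 3 had the highest level of both them and Il7r. Of 13 B cell markers, 12 were well above background in all 3 KO-labelled MPPs and 11 in all 3 KO-labelled HSCs, and 11 in all 3 WT MPPs and 10 in all 3 WT HSCs. Ms4a1, which encodes the mature B cell protein CD20, was well above background in no sample. The summed linear level of the list was 76475, 166282 and 237257 in KO-labelled MPPs 1, 2 and 3, against 68683 to 83693 in KO-labelled HSCs. In WT cells it was 23437, 19759 and 16582 in MPPs 1, 2 and 3, against 23305 to 29069 in HSCs. Among WT MPPs, MPP 3 thus had the lowest sum and the highest Il7r level, 8.01. Ebf1, a B lineage transcription factor, had levels of 12.09, 13.71 and 14.51 in KO-labelled MPPs, against 7.12, 7.36 and 9.29 in KO-labelled HSCs. In WT cells Ebf1 was at 7.23, 6.88 and 7.15 in MPPs, against 5.99, 6.54 and 6.21 in HSCs. The part of these markers in the Il7r signal was not tested.

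Il2rg, the common gamma chain shared by several interleukin receptors, had high signal in all 12 channels. Its levels were 13.42, 13.29 and 13.51 in KO-labelled MPPs, against 12.49, 12.41 and 13.40 in KO-labelled HSCs. In WT cells they were 11.93, 12.17 and 12.17 in MPPs, against 11.17, 10.47 and 12.08 in HSCs. The MPPs agreed closely, and HSC array 3 lay nearer to them than the other HSC arrays did. The differences of 0.64 (SE 0.34) in KO-labelled cells and 0.85 (SE 0.43) in WT cells did not pass, with limma's adjusted p of 0.512 and 0.423. The 95% interval ran from -0.16 to 1.44 in KO-labelled cells and from -0.20 to 1.90 in WT cells.

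The middle Ikzf1 probe, uncertain between Ikzf1 and Ikzf4, had levels of 14.09, 13.86 and 13.72 in KO-labelled MPPs, against 12.83, 14.83 and 12.41 in KO-labelled HSCs. In WT cells it had 12.19, 12.87 and 12.93 in MPPs, against 11.73, 12.30 and 11.61 in HSCs. The groups overlapped in both genotypes, with 1 high HSC sample in KO-labelled cells. The differences were 0.53 (SE 0.63) and 0.78 (SE 0.33), with limma's adjusted p of 0.766 in KO-labelled cells and 0.358 in WT cells. Across the 12 levels, each dye centred on its own mean, this probe and its near copy for Ikzf4 had a Pearson r of 0.996. The other 2 Ikzf4 probes kept by the filter had differences of -0.35 and -0.39 in KO-labelled cells and -0.11 and -0.20 in WT cells.

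The distal Ikzf1 probe, A_66_P124139, differed by 0.62 (SE 0.53) in KO-labelled cells and 0.01 (SE 0.96) in WT cells. Its WT HSC levels of 9.18, 7.65 and 11.57 enclosed those of all WT MPPs, whose highest was 9.96. The proximal probe differed by 0.46 (SE 0.66) in KO-labelled cells and 0.27 (SE 0.29) in WT cells. None of the 3 Ikzf1 probes passed, and limma's adjusted p ran from 0.358 to 0.998 over them.

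Ikzf2 was measured by A_66_P122551, with levels of 10.07, 10.39 and 9.61 in KO-labelled MPPs, against 9.82, 10.62 and 8.94 in KO-labelled HSCs. In WT cells they were 8.79, 8.28 and 9.47 in MPPs, against 7.59, 7.65 and 9.05 in HSCs. The groups overlapped in both genotypes, and the differences of 0.23 (SE 0.47) and 0.75 (SE 0.51) had limma's adjusted p of 0.874 in KO-labelled cells and 0.532 in WT cells. The other Ikzf2 probe, A_52_P413515, was well above background in 1 KO-labelled MPP and 2 WT MPPs and in 0 of 6 HSC channels, and it was not tested.

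Ly6d had levels of 9.94, 9.69 and 10.46 in KO-labelled MPPs, against 10.25, 10.31 and 9.92 in KO-labelled HSCs. In WT cells they were 8.78, 8.49 and 8.48 in MPPs, against 9.13, 8.81 and 9.31 in HSCs. The KO-labelled groups overlapped, and all WT MPPs lay below all WT HSCs by a small margin. The differences were -0.13 (SE 0.30) and -0.50 (SE 0.25), with limma's adjusted p of 0.891 in KO-labelled cells and 0.417 in WT cells.

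**Figure D2:**
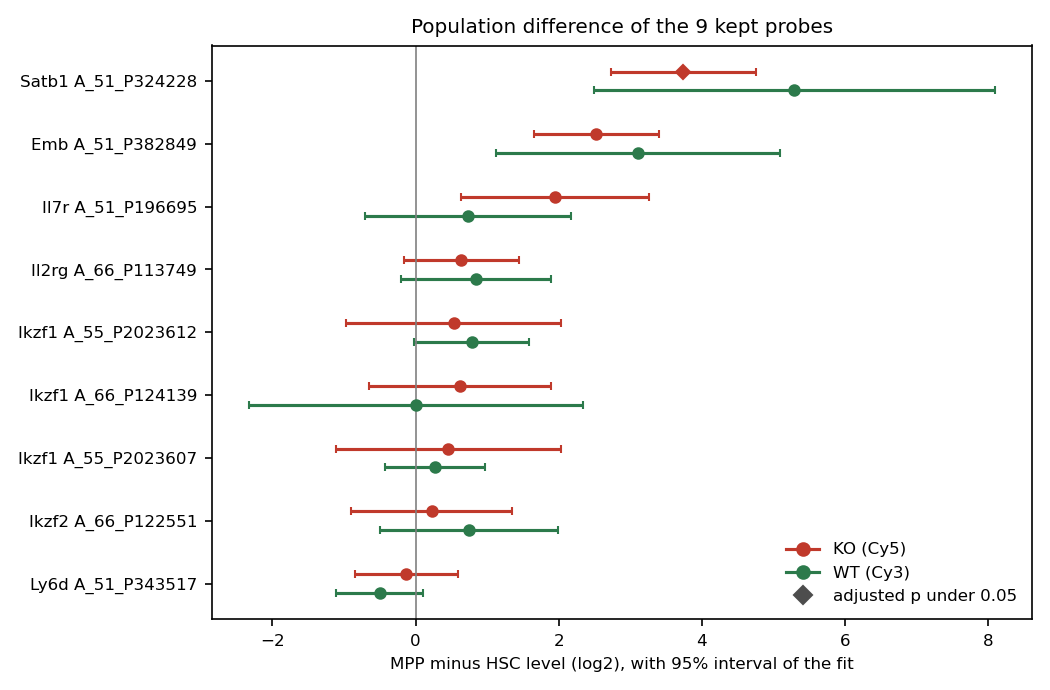
MPP minus HSC level (log2) of the 9 kept probes with the 95% interval of the limma fit, KO-labelled cells above WT cells for each probe. The diamond marks the 1 value past an adjusted p of 0.05, Satb1 in KO-labelled cells at 3.74.

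Over the 9 kept probes, 8 were higher in MPPs in each genotype, with a median difference of 0.62 in KO-labelled cells and 0.75 in WT cells. Over all 44641 probes these medians were -0.08 in both. In KO-labelled cells 1 of the 9 passed an adjusted p of 0.05, where 0.352% of all probes did. In WT cells 0 passed, where 0.287% did. By unadjusted p under 0.05 the counts were 3 in KO-labelled cells, beside 11.6% of all probes, and 2 in WT cells, beside 14.2%. MPPs and HSCs did not overlap for 3 probes in KO-labelled cells, beside 19% of all probes, and for 3 in WT cells, beside 21.1%. Il7r was kept because of its KO-labelled MPPs, and the genes were chosen with earlier results of these data known. These counts are therefore a description of the kept probes.

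Other genes of lymphoid priming were described from a list of 30, each by its probe with the highest mean intensity. Of these, 24 were higher in MPPs in each genotype. By the test 4 rose and 0 fell in KO-labelled cells, beside 0.352% of all probes that passed. In WT cells 5 rose and 0 fell, beside 0.287%. The list was chosen with earlier results of these data known, so these counts are a description and not a test of the list. Flt3, which is among the genes that rose, was also an MPP marker in the check of the labels. The median difference was 0.79 in KO-labelled cells and 0.65 in WT cells. Markers of some other blood cells also had positive medians in MPPs against HSCs, and those of others did not. The medians in KO-labelled and WT cells were 3.06 and 0.26 for B cells, -1.39 and -1.20 for megakaryocytes and -0.10 and -0.15 for T cells. They were -0.23 and -0.04 for NK cells and innate lymphoid cells, and 0.90 and -0.21 for erythroid cells. The median was 1.57 in KO-labelled cells and 3.93 in WT cells over 7 measured basophil, mast cell and eosinophil genes, and 1.71 and 0.83 over 10 measured neutrophil and monocyte genes. Of the basophil, mast cell and eosinophil list and the neutrophil and monocyte list 0 genes passed in limma's test. Of 12 measured B cell genes 1 passed in KO-labelled cells, beside 0.352% of all probes, and 0 passed in WT cells, beside 0.287%. At an unadjusted p under 0.05 there were 2 in KO-labelled cells and 4 in WT cells for neutrophils and monocytes. For basophils, mast cells and eosinophils there were 0 and 4. For B cells 8 were higher in KO-labelled cells, and 2 were higher and 1 was lower in WT cells. Of all probes, 11.6% in KO-labelled cells and 14.2% in WT cells had such a p. Their part in the priming genes was not tested. Dntt, the terminal transferase that adds bases at rearranged antigen receptor joints, rose by 3.59 (SE 0.28) in KO-labelled cells and by 2.76 (SE 0.33) in WT cells, with limma's adjusted p of 0.00941 and 0.0493. Flt3, the cytokine receptor used to tell MPPs from HSCs, rose by 2.92 and 3.03, with limma's adjusted p of 0.0226 in KO-labelled cells and 0.0291 in WT cells. Its other probes differed by 3.53 and 0.43 in KO-labelled cells and by 4.35 and 0.44 in WT cells. Rag2, a subunit of the V(D)J recombinase, was not well above background in any HSC sample. It was at least 44.6-fold higher in KO-labelled MPPs and at least 7.57-fold higher in WT MPPs, with limma's adjusted p of 0.0123 and 0.0216. The filter kept this Rag2 probe only through the MPPs. Its p-values and its place among the genes that rose are therefore a description of a kept probe. A second Rag2 probe was well above background only in KO-labelled MPPs, where it was at least 1.45-fold higher (limma's adjusted p = 0.449). Igj, the immunoglobulin joining chain, rose by 4.49 in KO-labelled cells and by 5.29 in WT cells, with limma's adjusted p of 0.0419 and 0.0762. The filter kept Igj, too, only through the MPPs. Cd53, a tetraspanin of leukocytes, rose by 3.04 in KO-labelled cells and by 3.92 in WT cells, with limma's adjusted p of 0.0867 and 0.0474.

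**Figure D3:**
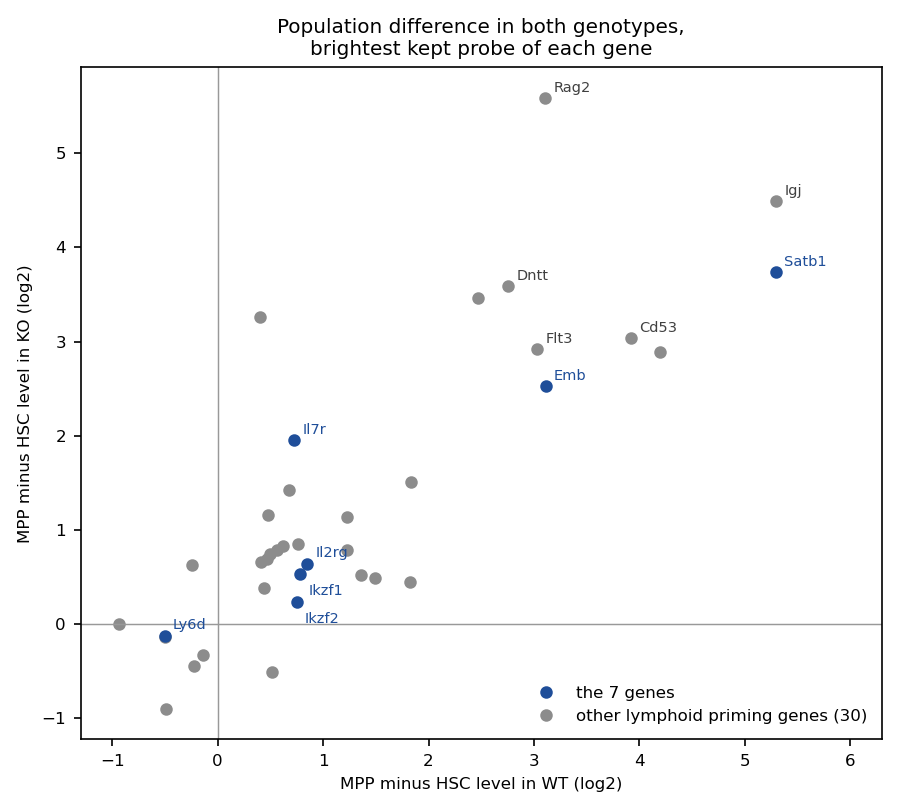
MPP minus HSC level (log2) in WT cells on the horizontal axis and in KO-labelled cells on the vertical axis, for the 7 genes (blue) and the 30 other lymphoid priming genes (grey), each by its probe with the highest mean intensity. The grey points that are named passed in at least 1 genotype. The Ikzf1 point is the middle probe, which is uncertain between Ikzf1 and Ikzf4. Satb1 and Emb lie among Flt3, Dntt, Cd53 and Igj at the upper right, and Ly6d lies below 0 on both axes.

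Genes that act with the interleukin-7 receptor were described from a list of 21, of which 19 were measured. In KO-labelled cells 0 passed in limma's test, with 1 lower at an unadjusted p under 0.05, beside 11.6% of all probes. In WT cells 1 was higher and 2 were lower at that unadjusted p, beside 14.2% of all probes. By adjusted p 0 rose and 1 fell in WT cells, beside 0.287% of all probes. The 1 that fell was Cish, a STAT5-induced inhibitor of cytokine signalling. Its levels were 6.10, 6.39 and 5.92 in WT MPPs, against 9.50, 8.78 and 9.46 in WT HSCs. Cish was well above background in 1 of the 3 WT MPPs, and it fell by 3.11 (SE 0.30, limma's adjusted p = 0.0300) in WT cells. In KO-labelled cells its levels were 8.24, 9.37 and 10.16 in MPPs, against 10.43, 12.81 and 10.25 in HSCs. Of 16 Ikaros family members and chromatin partners, 12 were higher in MPPs in each genotype and 0 passed in limma's test, with 1 in KO-labelled cells and 3 in WT cells at an unadjusted p under 0.05, beside 11.6% and 14.2% of all probes. Ikzf4 enters that list with the probe that nearly copies the Ikzf1 probe. Among 10 measured Ly6 family members 0 passed in either genotype, with 3 in KO-labelled cells and 2 in WT cells at an unadjusted p under 0.05, beside the same 11.6% and 14.2%. Among 5 relatives and partners of embigin 0 passed, and 0 had an unadjusted p under 0.05.

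KO-labelled cells were then compared with WT cells on the same arrays, which asks whether loss of Bmi1 changed the genes. None of the 9 probes passed in MPPs or in HSCs, where 0% of all 44641 probes passed in each, and the smallest adjusted p over all probes was 0.865 in MPPs and 0.620 in HSCs. By unadjusted p under 0.05 the members gave 0 in MPPs, beside 4.81% of all probes, and 1 in HSCs, beside 7.34%. In MPPs the mean log2 ratio of KO over WT was positive for 4 probes and negative for 5, between -0.41 and 0.94. In HSCs it was positive for 7 and negative for 2, between -0.23 and 1.71. Under median centring in place of loess the median of all probes moved up by 0.22 in MPPs and 0.25 in HSCs, and 5 of the member means in MPPs and 1 in HSCs changed sign.

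Satb1 had log2 ratios of -0.03, -0.73 and -0.20 on MPP arrays 1, 2 and 3, and of 2.84, -0.22 and 2.52 on HSC arrays 1, 2 and 3. It was near or below WT on all MPP arrays, and on HSC arrays 1 and 3 it was several-fold above WT while array 2 was not. On HSC array 1 the WT signal of Satb1 was not well above background. The mean was -0.32 (SE 0.59) in MPPs and 1.71 (SE 0.59) in HSCs, with limma's unadjusted p of 0.610 and 0.0262 and adjusted p of 0.999 and 0.676. The fit shares 1 SE between the populations, whereas the SD was 0.36 on MPP arrays and 1.68 on HSC arrays. The HSC mean was 2.68 without HSC array 2, 1.15 without HSC array 1 and 2.76 with Agilent's log ratio, with limma's adjusted p of 0.833, 0.529 and 0.704.

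Emb had log2 ratios of 0.77, -0.28 and -0.87 on MPP arrays and 0.25, 2.09 and -0.57 on HSC arrays, so both signs occurred in each population. Il7r had -0.09, 1.23 and 0.01 on MPP arrays and -0.56, 0.07 and 0.05 on HSC arrays. Its ratios on HSC arrays 2 and 3 compare signals not well above background in either channel, so they do not measure a KO effect on Il7r. On MPP array 2 the KO channel was well above background and the WT channel was not. The size of that ratio is therefore not measured. Il2rg stayed between -0.47 and 0.05 on MPP arrays and between -0.17 and 0.64 on HSC arrays. Ly6d stayed between -0.20 and 0.60 on MPP arrays and between -0.65 and 0.19 on HSC arrays. For Il2rg the 95% interval of the mean ran from -0.87 to 0.42 in MPPs and from -0.51 to 0.78 in HSCs, the narrowest among the members.

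The distal Ikzf1 probe had log2 ratios of 0.03, 2.30 and 0.50 on MPP arrays and 1.20, 2.14 and -2.67 on HSC arrays. The middle Ikzf1 probe had 0.38, -0.68 and -0.93 on MPP arrays and -0.29, 0.95 and -0.58 on HSC arrays. The proximal Ikzf1 probe had -0.10, 0.64 and 0.47 on MPP arrays and 1.30, -0.63 and -0.36 on HSC arrays. On 5 of 6 arrays the 3 probes of Ikzf1 gave ratios of both signs, and HSC array 3 was the exception. Ikzf2 had -0.05, 0.78 and -1.36 on MPP arrays and 0.73, 1.61 and -1.39 on HSC arrays.

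**Figure D4:**
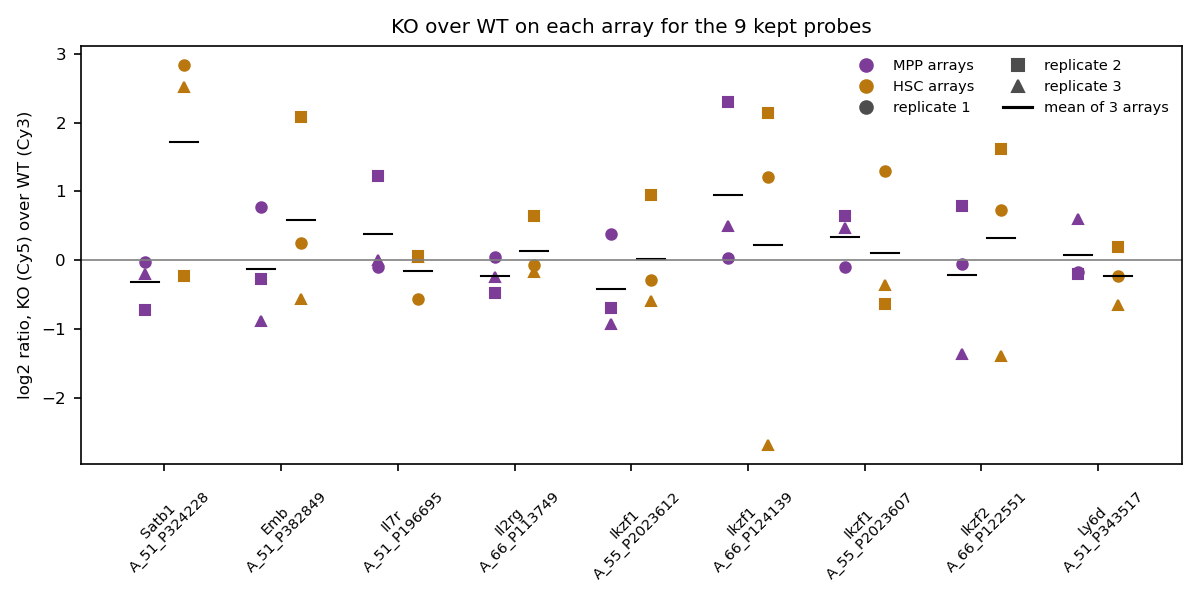
Log2 ratio of KO (Cy5) over WT (Cy3) on each array for the 9 kept probes, MPP arrays left of HSC arrays. Marker shapes are replicates and black bars are means of 3 arrays. Satb1 on HSC arrays 1 and 3, at 2.84 and 2.52, and the distal Ikzf1 probe on HSC array 3, at -2.67, lie farthest from 0.

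Ratios had the same sign on all 3 MPP arrays for 2 of the 9 probes, beside 29.1% of all probes, namely Satb1 (lower in KO-labelled cells) and the distal Ikzf1 probe (higher). They had the same sign on all 3 HSC arrays for 0 of the 9, beside 26.8% of all probes. The difference of the KO effect between MPPs and HSCs, in which a dye effect of a probe cancels, passed for 0 of the 9 and for 0% of all probes. By unadjusted p under 0.05 it gave 1 of the 9, beside 4.15% of all probes. That probe was Satb1, whose ratio was lower in MPPs than in HSCs by a log2 difference of -2.03 (SE 0.84, limma's unadjusted p = 0.0498, adjusted p = 0.968), with ratios that overlapped between the populations.

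Of the 30 lymphoid priming genes, 12 had a positive KO over WT ratio in MPPs and 18 in HSCs, and 0 passed in either. The median was -0.17 in MPPs and 0.11 in HSCs. At limma's unadjusted p under 0.05, 2 were higher and 3 were lower in MPPs, beside 4.81% of all probes. In HSCs 1 was higher and 0 were lower, beside 7.34%. The 2 higher in MPPs were Rag1 and Rag2. Rag1, the partner of Rag2 in the recombinase, had log2 ratios of 1.37, 4.02 and 3.95 on MPP arrays and -0.06, 0.38 and 0.86 on HSC arrays. Its mean in MPPs was 3.11 (SE 0.55), with limma's unadjusted p of 0.00109 and adjusted p of 0.992, and its other probe had 2.51. Rag2 had a mean of 1.75 (SE 0.43, limma's adjusted p = 0.992) in MPPs. The B cell markers listed above were positive in MPPs for 12 of 12 measured genes and in HSCs for 6 of 12, and 0 passed. Their median was 2.23 in MPPs, where 9 had an unadjusted p under 0.05, beside 4.81% of all probes.

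Levels of the members were last set against each other and against other genes, as a description over 12 levels from 6 arrays, each dye centred on its own mean, in which samples of 1 array share a hybridization. Emb and Il2rg had a Pearson r of 0.91 over the 12 levels and of 0.91 over the 6 ratios. Emb and the middle Ikzf1 probe had 0.37 over levels and 0.98 over ratios, and Satb1 and Emb had 0.70 and -0.21. The genes most like Satb1, over the same 12 levels, were Igh-VJ558 (r = 0.94), Sh2d5 (0.94) and Wdr36 (0.94). Those most like Emb were Gdi2 (0.97), Lbr (0.97) and G3bp2 (0.96), and those most like Il2rg were Tmed5 (0.98), Baz1a (0.96) and Ttc4 (0.96). For Il7r they were Lag3 (0.94), Sdhaf1 (0.92) and Zfp551 (0.92), and for Ikzf2 they were Idh3g (0.96), Dap (0.92) and Ccs (0.92). For the middle Ikzf1 probe they were Ikzf4 (0.996), through the near copy of that probe, Tnfrsf1b (0.92) and Slc16a10 (0.91). For Ly6d they were Nav2 (0.92), Arhgap42 (0.92) and Defb47 (0.90). Emb had 80 and Il2rg 98 of 21733 probes of named genes at an r over 0.9, against 2 for Ly6d and 3 for Ikzf2.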

How the data were processed

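Per the file headers, the deposited files held the intensity of every spot and its local background in both channels and 0 or 1 marks for its quality. The headers name Agilent Feature Extraction 10.7.3.1, whereas version 8.5.1.1 stands in the submitters' processing notes. The authors' series table held the log10 ratio of Cy5 over Cy3, equal to the arrays' own column at every spot. Spots marked non-uniform or outlying were left out. Intensities were corrected with normexp (offset 50, limma 3.58.1, R 4.3.3), log2 ratios loess-normalized within arrays, and log2 levels quantile-normalized between the 6 arrays of each dye. Probes well above background on all 3 arrays of a group were kept. limma (lmFit, eBayes) was fitted to 44641 probes with Benjamini-Hochberg adjustment and a threshold of 0.05. Each fit used all 6 arrays with 1 variance per probe, shared by MPPs and HSCs and moderated over probes. The p-values therefore measure a spread pooled over both populations, with 3 samples in each. On simulated data limma returned the changes put in. It called most of the large changes between populations but none of the moderate ones, so a probe that missed the threshold is not shown to be unchanged. Arrays limit the precision. Every member probe is reported; of each list, up to 4 genes with the smallest p were named, and likeness names the 3 genes with the highest r. Members and lists were chosen with earlier results of these data known. Other settings are given at the end. Some genes that the lists' rule would name are not reported here; they remain in the lists' counts and medians.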

Additional observations from a re-analysis of the deposited data

How the results depend on the processing

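The counts of probes with an adjusted p under 0.05 in MPPs against HSCs were the least stable values. In KO-labelled cells the count of 157 became 85 without a filter on dim probes and lay between 36 (without MPP 1) and 125 when 1 array was left out, with 84, 56, 58 and 39 without HSC 1, HSC 2, MPP 2 and MPP 3. In WT cells the count of 128 became 63 without that filter and 78 when every channel had to be well above background. It lay between 0 (without HSC 1, HSC 3 or MPP 3) and 105 when 1 array was left out, with 34 without HSC 2 and 5 without MPP 1. With the slide row as a covariate, or with the replicate block, both counts were 0. Deviations of same-numbered arrays had weak correlations (r from -0.07 to 0.16). In WT levels these were 0.160, 0.044 and 0.114 for numbers 1, 2 and 3, against -0.154 to 0.037 for arrays of unlike number. Whether the numbers pair samples cannot be told from these values, and the block is given only here. With the replicate block Satb1 in KO-labelled cells kept its difference of 3.74 at limma's adjusted p of 0.126, and no other member call changed. Satb1 there also missed the threshold with Agilent's processed signal (3.79, adjusted p = 0.0677) and without the filter (3.74, 0.0563). Counts for KO against WT and for the difference of effects were 0 in all settings. The sign of some ratios turned, none of them past a threshold. Under median centring, Il2rg was at 0.17, Satb1 at 0.29, the middle Ikzf1 probe at 0.075, Ikzf2 at 0.13 and Emb at 0.22 in MPPs, and Ly6d at 0.12 in HSCs. With Agilent's log ratio the proximal Ikzf1 probe was at -0.0038 in HSCs. With the slide row as a covariate, the KO over WT ratio in MPPs is that of MPP 1, with Il7r at -0.089, Il2rg at 0.052, the proximal and middle Ikzf1 probes at -0.10 and 0.38, Emb at 0.77 and Ly6d at -0.16. The difference of effects was then -0.21, 0.36 and -0.19 for the proximal, middle and distal Ikzf1 probes and 0.18 for Emb. The cause was not tested. With 1 array left out in turn, signs also turned for ratios in HSCs: Il7r ran from -0.26 to 0.057, Il2rg from -0.12 to 0.29, the proximal, middle and distal Ikzf1 probes from -0.50 to 0.47, from -0.44 to 0.33 and from -0.74 to 1.67, Ikzf2 from -0.33 to 1.17 and Emb from -0.16 to 1.17. In MPPs Il7r ran from -0.040 to 0.62, Ikzf2 from -0.71 to 0.37, Emb from -0.58 to 0.25 and Ly6d from -0.18 to 0.22. The difference of effects ran from -0.13 to 0.83, from -0.83 to 0.026 and from -0.72 to 1.68 for the 3 Ikzf1 probes, from -1.38 to 0.12 for Ikzf2 and from -1.29 to 0.031 for Emb. Of MPP minus HSC levels, the distal Ikzf1 probe in WT cells ran from -0.90 to 1.06, and in KO-labelled cells Ikzf2 ran from -0.20 to 0.64 and Ly6d from -0.34 to 0.041. Il7r and the second Ikzf2 probe are limited by signal near background.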
